A study of Drosophila melanogaster with 8 samples.

Results

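The scaffolds 3LHet and 3RHet are assembled pieces of the heterochromatin of the left and right arms of Drosophila melanogaster chromosome 3. The histone H1 regions on them were chosen by sequence name alone, as every region that the authors' combined list places on 3LHet or 3RHet. This gave 818 of the 16190 regions of the combined list (5.05%), 410 on 3LHet and 408 on 3RHet. The scaffolds are 2555491 and 2517507 bp long in FlyBase r5 coordinates, the build named in the file headers. Together they make up 3.63% of the 139.7 Mb that carries any region.

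The study mapped H1 by ChIP-seq, the sequencing of immunoprecipitated chromatin, in embryos of the wild-type strain Oregon-R-modENCODE, labelled as 14 to 16 h old. H1 was immunoprecipitated in 4 libraries, and 4 more are input chromatin. Both groups share strain, genotype, stage and fixation in 1.8% formaldehyde, and the input values were not analysed here. Each immunoprecipitated library has its own list of enriched regions, and the combined list stands for the set of replicates. Whole embryos were used, so each region averages over all embryonic cell types. Whether the 4 replicates are separate embryo collections is not stated, and p-values then measure only the spread between these samples, which may be technical. No read counts were available, so depth is unknown, and a stretch without a region is not a stretch shown to lack H1.

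H1 is the linker histone: it binds where DNA enters and leaves the nucleosome and helps to fold nucleosome arrays into compact chromatin. Heterochromatin around fly centromeres is gene-poor, rich in transposon remnants and other repeats, and marked by methylation of histone H3 at lysine 9 and by the protein HP1a. Fly H1 is known to be needed for the structure of this heterochromatin and for silencing of transposons there. The labels and headers do not say how either scaffold is oriented towards the centromere, so positions count from the first base of each. Shares are over full scaffold lengths, including any gaps in the assembly and any repeats in which reads cannot be placed.

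H1 regions were about equally dense on both scaffolds. The combined list held 160.4 regions per Mb on 3LHet and 162.1 per Mb on 3RHet, against 115.9 per Mb over the whole series. It covered 33.2% of 3LHet and 33.3% of 3RHet, against 21.8% over the whole series. In the lists of replicates 1 to 4, 84, 62, 98 and 110 regions lay on 3LHet, and 68, 64, 93 and 113 lay on 3RHet. These regions covered 5.57, 4.11, 6.47 and 7.47% of 3LHet, and 4.77, 4.16, 5.98 and 7.78% of 3RHet. The ranges of the scaffolds overlap almost wholly, and on both of them replicate 2 had the lowest value and replicate 4 the highest. The covered share averaged 5.91% ± 1.42 on 3LHet and 5.67% ± 1.59 on 3RHet (SD, n = 4 each). The log2 ratio of 3LHet to 3RHet within a replicate was 0.07 ± 0.13 (SD, n = 4), positive in 2 of 4 replicates (exact two-sided sign-flip permutation test, p = 0.5; Benjamini-Hochberg adjusted p = 0.972 over 10 tests). With 4 replicates the smallest p this test can give is 1 in 8, or about 0.13. The difference was smaller than the spread between replicates.

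Set against the ends of the chromosome arms that they extend, the scaffolds gave different ratios, although their own covered shares were alike. The arm ends were what differed, with a mean covered share of 5.74% for 3L and 2.72% for 3R. How much of each arm end is heterochromatin was not tested. The last 2 Mb of arm 3L had a covered share of 5.33, 4.25, 5.74 and 7.64% in replicates 1 to 4, a range that overlaps that of 3LHet almost wholly. The log2 ratio of 3LHet to this arm end was 0.04 ± 0.10 (SD, n = 4), positive in 2 of 4 replicates (exact sign-flip p = 0.625, adjusted p = 0.972). 3RHet, in contrast, was more densely covered than the first 2 Mb of arm 3R in every replicate. There the arm end reached 2.68, 2.20, 2.10 and 3.91%, below the lowest 3RHet value of 4.16% in all 4 lists. The log2 ratio of 3RHet to the 3R arm end was 0.83, 0.92, 1.51 and 0.99 for replicates 1 to 4, a mean of 1.06 ± 0.30 (SD, n = 4) or 2.09-fold. Its exact p was 0.13, the smallest the test can give, with an adjusted p of 0.625, so the comparison did not pass the test. The log2 ratio was 0.52 when stretches of 20 kb or more without a region in any list were taken out of the lengths. In the combined list, gaps of 20 kb or more took 20.0% of 3RHet, against 46.1% of the first 2 Mb of 3R. They took 15.4% of 3LHet, against 11.5% of the last 2 Mb of 3L.

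**Figure D1:**
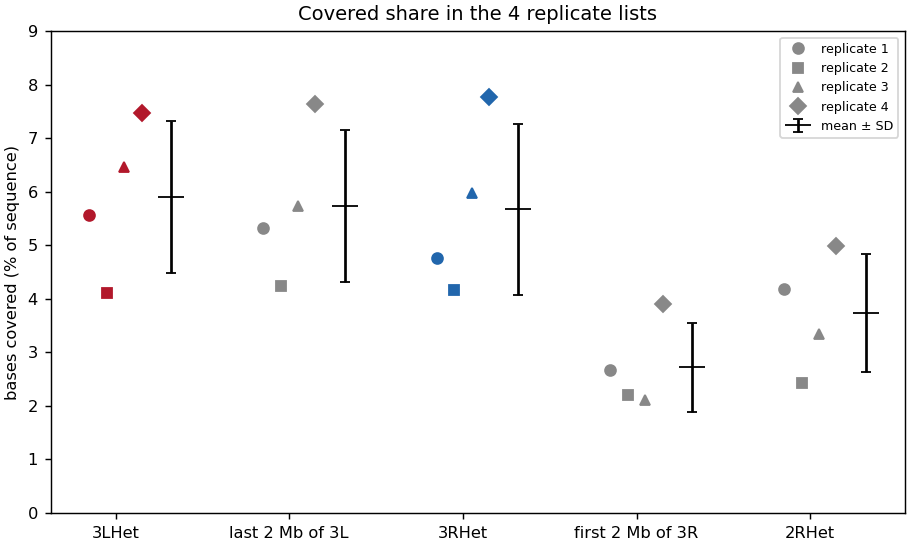
The vertical axis gives the share of bases covered by H1 regions (%) in each replicate list, for 3LHet, 3RHet, the 2 Mb arm ends of 3L and 3R, and the scaffold 2RHet; points are replicates 1 to 4 and the bar is the mean ± SD. The 3RHet points lie between 4.16 and 7.78%, all above the 3R arm end at 2.10 to 3.91%, and the 3LHet points overlap those of the 3L arm end.

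Another heterochromatin scaffold, 2RHet, 3.29 Mb long and from chromosome 2, was less covered. Summed, 3LHet and 3RHet had a covered share of 5.17, 4.14, 6.23 and 7.62% in replicates 1 to 4, and 2RHet had 4.19, 2.43, 3.34 and 4.98%. The ranges overlap between replicates, but within each replicate the chromosome 3 scaffolds were the higher. The log2 ratio was 0.30, 0.77, 0.90 and 0.61, with a mean of 0.65 ± 0.26 (SD, n = 4) or 1.56-fold. It was 0.42 without the stretches of 20 kb or more that hold no region, and 0.35 in the combined list. The exact p was again 0.13, with an adjusted p of 0.625, so this comparison did not pass the test either. In the combined list, the median region was 1759.5 bp wide on 3LHet and 1732 bp on 3RHet, against 1642.5 bp on 2RHet and 1568 bp over the whole series. The last 2 Mb of 3L came close to the scaffolds in that list, with 1704 bp, 158 regions per Mb and 32.9% covered. The first 2 Mb of 3R did not, with 1507.5 bp, 103 regions per Mb and 18.5% covered.

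Along each scaffold, coverage had no simple gradient from one end to the other. In the first 50% of 3LHet, replicates 1 to 4 covered 6.07, 4.48, 6.30 and 7.28% of the bases, and in the second 50% 5.07, 3.75, 6.64 and 7.66%. The log2 ratio of the first to the second stretch was 0.09 ± 0.19 (SD, n = 4; exact sign-flip p = 0.5, adjusted p = 0.972). On 3RHet the first 50% reached 4.18, 5.02, 6.66 and 7.60%, and the second 50% 5.36, 3.30, 5.31 and 7.96%. Its log2 ratio was 0.13 ± 0.43 (SD, n = 4; exact sign-flip p = 0.75, adjusted p = 0.972) and became -0.03 without replicate 2. On neither scaffold did these stretches differ beyond the replicate spread, and in both the ratio was positive in 2 of 4 replicates. Cut into stretches of 25% of the length, 3LHet was covered by the combined list at 28.4, 35.8, 37.8 and 30.8% from its first base on. On 3RHet these stretches were covered at 33.0, 36.8, 33.9 and 29.5%. In the combined list the least covered stretch was thus the first on 3LHet and the last on 3RHet. The mean of the 4 replicate lists over the same stretches was 5.67, 6.39, 6.01 and 5.55% on 3LHet and 5.70, 6.02, 5.72 and 5.25% on 3RHet, lowest in the last stretch of both. The SDs were 0.610 to 2.63 (n = 4), and these stretches were not tested. The replicates did not share this order: on 3LHet replicates 1 and 2 were lowest in the third stretch, at 5.02 and 3.28%. The first region of 3LHet began at base 2226 and the last ended 7284 bp before its end. On 3RHet the first region began at base 15 and the last ended 1214 bp before its end, so regions reach close to all ends.

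Windows of 100 kb showed broad peaks and troughs within each scaffold. Over the 25 whole windows of 3LHet, the combined list covered between 13.8 and 52.1% of the bases, with a median of 33.4%. Over the 25 whole windows of 3RHet it covered between 10.2 and 48.4%, with a median of 33.1%. On 3LHet 9 windows were covered at 40% or more and 3 at less than 20%, and on 3RHet the numbers were 7 and 3. The most covered window of 3LHet was 3LHet:1900001-2000000, with 17 combined regions over 52.1% of its bases. There the lists of replicates 1 to 4 covered 18.2, 7.85, 18.5 and 14.8%. All 4 replicates were thus above their own average for the scaffold. The window was picked for its coverage in the combined list, which stands for these same replicates, so this is not separate support. The next were 3LHet:900001-1000000, at 49.6% in the combined list, and 3LHet:1300001-1400000, at 47.4%. The replicates covered 15.9, 3.29, 11.5 and 5.81% of the first of these, and 6.14, 2.27, 8.29 and 9.11% of the second. Replicates 2 and 4 fell below their scaffold average in 3LHet:900001-1000000, and replicates 1 and 3 lay above theirs.

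On 3RHet the most covered windows were close to each other in level. The combined list covered 48.4% of 3RHet:1500001-1600000, 48.4% of 3RHet:1200001-1300000 and 47.6% of 3RHet:600001-700000. In 3RHet:1500001-1600000 replicates 1 to 4 covered 10.9, 4.81, 7.79 and 14.8%, each above its average over the scaffold. This window too was picked from the combined list, so that is not separate support. In 3RHet:1200001-1300000 the replicates covered 5.61, 0, 5.11 and 11.0%, and in 3RHet:600001-700000 3.60, 7.98, 14.2 and 10.2%. Replicate 2 had no base in the window at 1.2 Mb although the combined list held 23 regions there. This shows how far the combined list and a single replicate can part at the same place.

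The least covered windows lay towards the ends of 3LHet. They were 3LHet:2300001-2400000 at 13.8% in the combined list, 3LHet:1-100000 at 17.4% and 3LHet:100001-200000 at 17.9%. The first was covered at 0, 0, 0 and 1.65% by replicates 1 to 4. The second was covered at 2.88, 3.65, 1.41 and 3.69%, and the third at 3.12, 3.58, 0 and 0%. The 11 combined regions of 3LHet:1-100000 were narrow, with a median width of 1196 bp, and had a median score of 0.693, against 0.422 over all of 3LHet. The score is the authors' own value for a region, and no source used here gives its scale. On 3RHet the least covered windows were 3RHet:2400001-2500000 at 10.2%, 3RHet:300001-400000 at 12.7% and 3RHet:1700001-1800000 at 13.9%. Replicates 1 to 4 covered 0, 1.36, 0 and 3.04% of the first, 1.68, 0, 1.89 and 2.97% of the second, and 3.82, 0, 0 and 1.60% of the third. Each of the 3 had no covered base in at least 1 replicate.

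**Figure D2:**
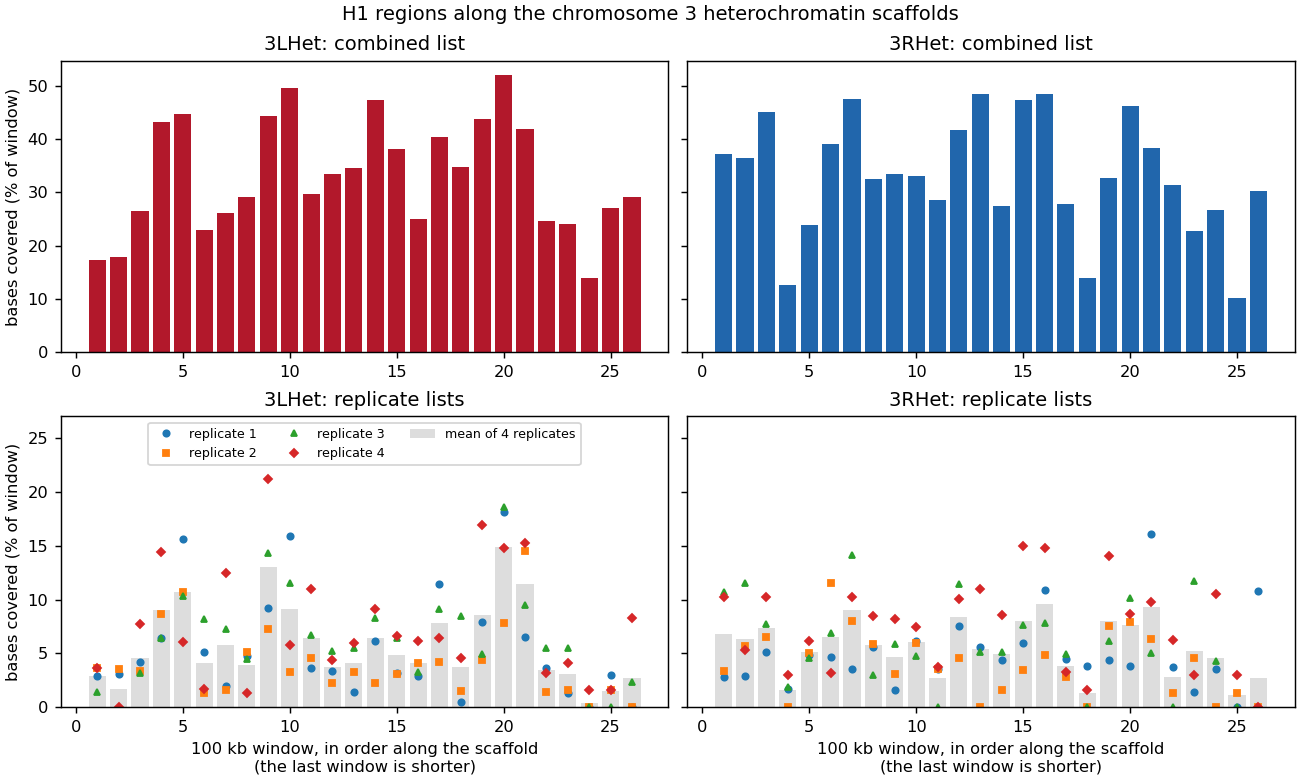
The horizontal axis is the 100 kb window in order along 3LHet (left) or 3RHet (right), and the vertical axis is the share of its bases covered (%); the top row is the combined list, and the bottom row has points for replicates 1 to 4 and grey bars for their mean. Combined coverage runs from 13.8 to 52.1% on 3LHet and from 10.2 to 48.4% on 3RHet over whole windows. Window 20 of 3LHet has the highest bar in both rows, and the highest single point is replicate 4 in window 9 of 3LHet, at 21.2%.

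The window profiles of the replicates had higher correlations on 3LHet than on 3RHet in 4 of 6 pairs. Over the 25 windows, Pearson's r between 2 replicate lists averaged 0.55 on 3LHet and 0.32 on 3RHet over the 6 pairs of replicates. It ran from 0.39 to 0.75 on 3LHet and from 0.08 to 0.52 on 3RHet. The exceptions were replicates 1 and 4, with 0.39 on 3LHet and 0.47 on 3RHet, and replicates 2 and 3, with 0.47 on 3LHet and 0.52 on 3RHet. Windows of 1 scaffold share their libraries and each list's total, so these values describe the profiles and carry no test. All 4 lists had bases in 22 of 25 windows of 3LHet and in 18 of 25 windows of 3RHet. The mean r was 0.52 and 0.31 on 3LHet and 3RHet with windows of 50 kb, and 0.65 and 0.17 with windows of 200 kb.

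Many regions lay within 2 kb of the next, on these scaffolds and over the whole series. Gaps of up to 2 kb made up 52.6% of gaps on 3LHet and 55.0% on 3RHet. The share was 48.4% over the whole series and 48.3% in the last 2 Mb of 3L. Joined across gaps of at most 2 kb, the regions formed 195 blocks on 3LHet and 184 on 3RHet. Of these, 97 on 3LHet and 79 on 3RHet were single regions. The median block was 3348 bp wide on 3LHet and 4412.5 bp on 3RHet. Blocks of 10 kb or more numbered 28 on 3LHet and 24 on 3RHet, and took 17.5% of 3LHet and 14.0% of 3RHet. At this join 3LHet thus had the wider extremes and 3RHet the wider typical block. The order of the typical block depended on the join. The median block was 2095 bp on 3LHet and 2664 bp on 3RHet when joined at 1 kb. When joined at 5 kb it was 9125 bp on 3LHet and 8370 bp on 3RHet.

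The widest block of 3LHet, 3LHet:908451-949929, ran over 41479 bp with 13 regions on 76.7% of its bases. Replicates 1 to 4 covered 22.0, 7.93, 18.4 and 1.41% of it, with 6, 2, 5 and 1 regions. Replicate 4, the longest list of all, was the lowest here. The next, 3LHet:1991941-2016814, held 8 regions over 24874 bp, and the replicates covered 21.4, 7.41, 14.9 and 36.3% of it. The third, 3LHet:1328686-1350954, held 8 regions over 22269 bp, and the replicates covered 16.3, 10.2, 7.27 and 13.0%. All 4 lists had regions in each of these blocks of 3LHet.

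The widest block of 3RHet, 3RHet:1232449-1255890, ran over 23442 bp with 9 regions, and the replicates covered 0, 0, 0 and 30.0% of it. It was thus present in replicate 4 alone, with 4 regions. The next, 3RHet:541721-564994, held 7 regions over 23274 bp, and the replicates covered 0, 18.8, 6.11 and 7.96%. The third, 3RHet:406346-426243, held 7 regions over 19898 bp, and the replicates covered 8.93, 17.8, 15.7 and 13.1%. It was the only one of these 3 blocks of 3RHet with regions in all 4 lists.

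Joining across gaps of up to 5 kb gave 101 blocks on 3LHet and 102 on 3RHet, and the widest on 3LHet stood out by its length. It ran over 123433 bp at 3LHet:1924878-2048310 (4.83% of the scaffold), against 57823 bp for the widest block of 3RHet at 3RHet:1217609-1275431. The 3LHet block held 28 combined regions, of which 22 were touched by at least 1 replicate list and 6 by 3 or more; over the whole series these shares are 44.2% and 3.56% of regions. Replicates 1 to 4 covered 20.0, 14.0, 17.4 and 20.0% of it, a mean of 17.8% ± 2.84 (SD, n = 4). Outside it, they covered 4.84, 3.61, 5.92 and 6.83% of 3LHet, a mean of 5.30% ± 1.39 (SD, n = 4). Each replicate was higher inside than outside, and the ranges do not overlap. The block was picked for its width in the combined list, so this is a description with no test. Without it, the log2 ratio of 3LHet to 3RHet in covered share was -0.10, against 0.07 with it. Taking a densely covered block out of 3LHet alone must lower this ratio, so the change says nothing about how the scaffolds compare. The widest 3RHet block was covered at 9.69, 0, 0 and 13.5% by replicates 1 to 4.

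Spacing between successive combined regions was short on both scaffolds. The median gap was 1856 bp on 3LHet and 1648 bp on 3RHet, against 2133 bp over the whole series. Gaps under 500 bp made up 88 of 409 gaps on 3LHet (21.5%) and 107 of 407 on 3RHet (26.3%), against 19.4% over the whole series. At the other end, 15 gaps on 3LHet and 14 on 3RHet were 20 kb or longer. They took 15.4% of 3LHet and 20.0% of 3RHet, against 29.9% of 2RHet and 41.4% of the whole series. Long gaps thus took up a smaller part of both chromosome 3 scaffolds than of 2RHet or of the series.

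The longest gaps of 3LHet were 3LHet:2327639-2377615 (49977 bp), 3LHet:2160964-2195343 (34380 bp) and 3LHet:138968-171522 (32555 bp). Those of 3RHet were longer, at 3RHet:445113-522328 (77216 bp), 3RHet:2382812-2443263 (60452 bp) and 3RHet:314314-368111 (53798 bp). No replicate list had a base in any of these 6 gaps. The longest gap of 3LHet lay wholly within its least covered window, and 3RHet:314314-368111 lay within 3RHet:300001-400000, the second least covered of 3RHet. Stretches of at least 20 kb with no region in any of the 5 lists numbered 13 on 3LHet and 13 on 3RHet, and took 13.7% of 3LHet and 18.7% of 3RHet. Whether these stretches hold assembly gaps or repeats was not tested.

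**Figure D3:**
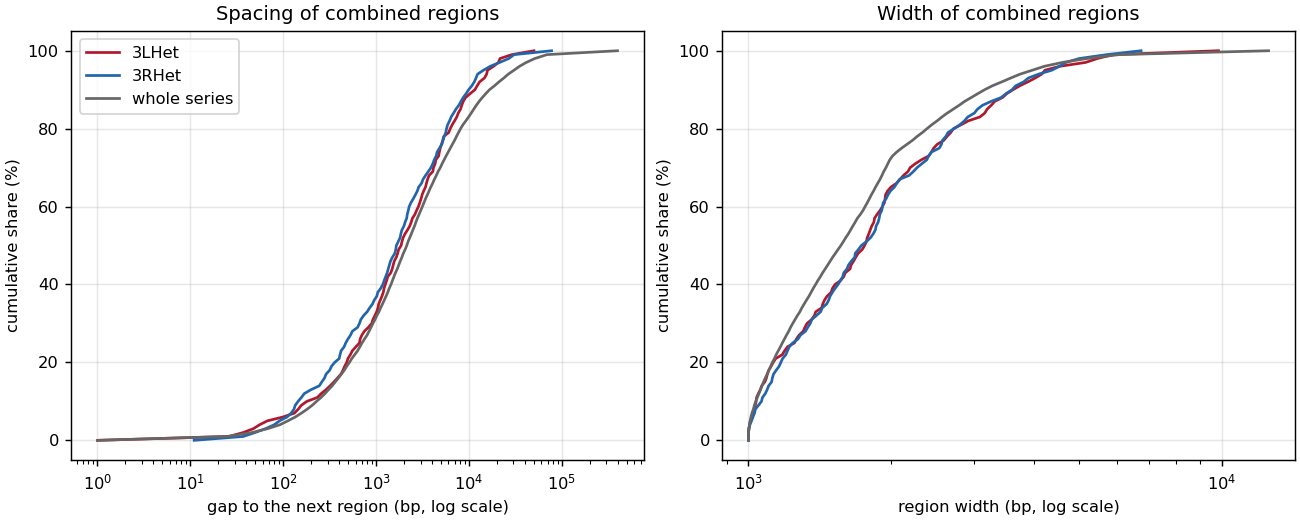
The left panel gives the gap from each combined region to the next (bp, log scale) and the right panel the region width (bp, log scale), each as a cumulative share (%), for 3LHet, 3RHet and the whole series. The median gap is 1856 bp on 3LHet, 1648 bp on 3RHet and 2133 bp over the whole series, and the median width 1759.5, 1732 and 1568 bp.

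Region widths differed little between the scaffolds. In the combined list the middle 50% of widths ran from 1251 to 2462 bp on 3LHet and from 1241 to 2530 bp on 3RHet. In the replicate lists, which hold no region under 1.3 kb, the median width was 1542.5, 1602, 1566 and 1623.5 bp on 3LHet and 1674.5, 1566, 1548 and 1625 bp on 3RHet. The difference of 3LHet from 3RHet was -19.9 ± 76.3 bp (SD, n = 4; exact sign-flip p = 0.875, adjusted p = 0.972), and its sign turned without replicate 1, to 17.5 bp. Regions of 5 kb or more numbered 14 on 3LHet (3.41%) and 9 on 3RHet (2.21%), and 23 together (2.81%), against 2.25% of all regions. That share is close to the series as a whole.

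The widest regions of 3LHet were 3LHet:1968818-1978643 (9826 bp), 3LHet:870090-877388 (7299 bp) and 3LHet:1319672-1326232 (6561 bp). All 4 lists touched the first 2, and replicates 1 and 4 touched the third. Replicates 1 to 4 covered 14.6, 0.377, 21.8 and 45.3% of the widest one, so the contact of replicate 2 was an overlap of 37 bp. The widest regions of 3RHet were 3RHet:706807-713550 (6744 bp), 3RHet:1558966-1565659 (6694 bp) and 3RHet:1637340-1643947 (6608 bp). Replicate 4 alone touched the first of them, with 49.5% of its bases. Replicates 1, 2 and 4 touched 3RHet:1558966-1565659, with 30.7, 21.5 and 59.5% of its bases. Replicates 2, 3 and 4 touched 3RHet:1637340-1643947, with 19.9, 29.8 and 49.8%. None of the 3 widest regions of 3RHet was thus touched by every list.

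Scores were also alike on both scaffolds. The median score in replicates 1 to 4 was 0.612, 0.721, 0.580 and 0.551 on 3LHet and 0.599, 0.685, 0.609 and 0.568 on 3RHet. The 3LHet median was 0.998 times that of 3RHet (exact sign-flip p = 1), and the ratio was above 1 in 2 of 4 replicates. In the combined list, the median score was 0.422 on 3LHet and 0.423 on 3RHet, against 0.402 over the whole series. A score of 1 or more was held by 14 regions of 3LHet and 9 of 3RHet, together 23 or 2.81% of the members, against 1.79% of all regions. The share was 0.384% on the arms 2L, 2R, 3L and 3R as a whole, and 4.93% on 2RHet.

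The regions of highest score were narrow and not found again in the replicate lists. On 3LHet they were 3LHet:776009-777009 (score 2.46, 1001 bp), 3LHet:2107363-2108365 (score 2.37, 1003 bp) and 3LHet:1080563-1081923 (score 2.05, 1361 bp). On 3RHet they were 3RHet:1712242-1713824 (score 2.05, 1583 bp), 3RHet:894651-896185 (score 1.86, 1535 bp) and 3RHet:1508667-1509786 (score 1.502, 1120 bp). None of these 6 was touched by any replicate list. Of all members with a score of 1 or more, 4 of 14 on 3LHet and 1 of 9 on 3RHet were touched by a replicate list, against 38 of 289 such regions over the whole series. Their median width was 1023.5 bp on 3LHet and 1102 bp on 3RHet. Both medians lie below 1.3 kb, the lower limit on width in the replicate lists.

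**Figure D4:**
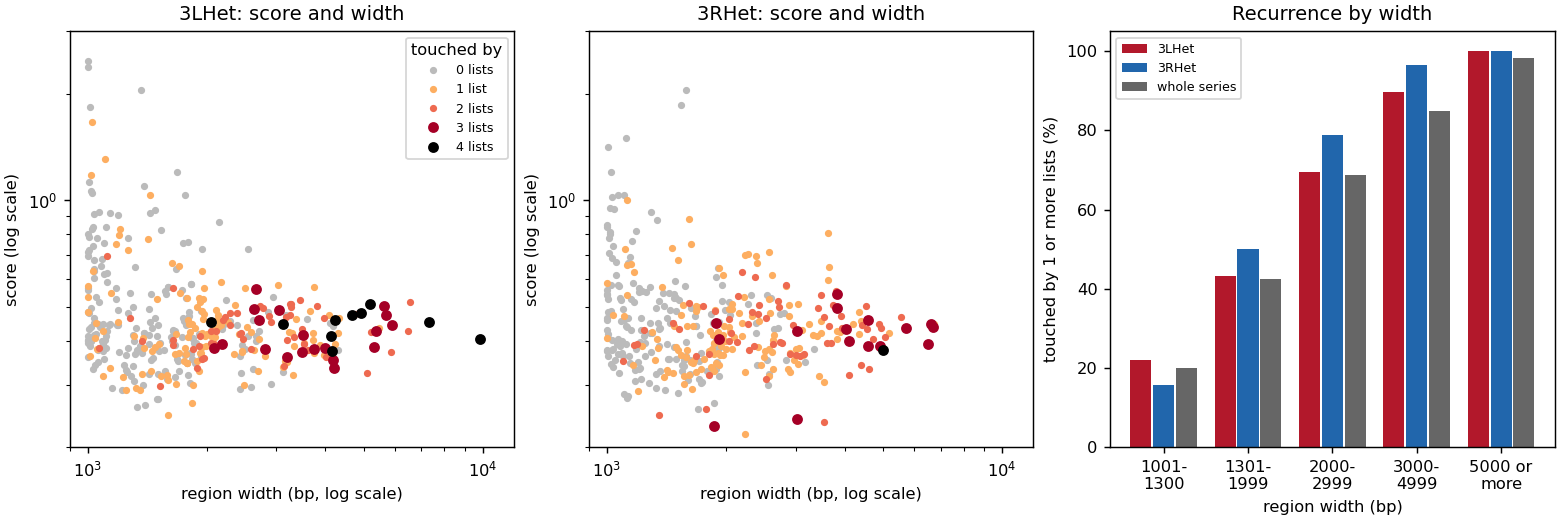
The left and middle panels plot the score of each combined region against its width (bp), both on log scales, for 3LHet and 3RHet, coloured by how many replicate lists touch it; the right panel gives the share touched by 1 or more lists (%) by width class. High scores lie at narrow widths, and the share touched runs from 22.1% in the narrowest class to 100% at 5 kb or more on 3LHet, and from 15.8 to 100% on 3RHet.

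Most members were touched by at least 1 replicate list, by a small margin. The combined list stands for these same replicates, so it is not independent of their lists and a touch is not separate support. Replicates 1 to 4 touched 18.0, 14.9, 21.7 and 25.4% of the combined regions of 3LHet and 16.2, 15.2, 20.3 and 26.0% of those of 3RHet. The difference of 3LHet from 3RHet was 0.58 ± 1.23 percentage points (SD, n = 4; exact sign-flip p = 0.5, adjusted p = 0.972). At least 1 list touched 207 regions of 3LHet (50.5%) and 219 of 3RHet (53.7%), together 426 or 52.1% of the members, against 44.2% of all regions. At least 2 lists touched 82 regions of 3LHet (20.0%) and 80 of 3RHet (19.6%), together 162 or 19.8%, against 14.0% of all regions. When at least 50% of a region had to be covered by 1 list, 156 regions of 3LHet and 162 of 3RHet qualified, together 318 or 38.9%, against 33.4% of all regions. The scaffolds were more densely covered than the series, at 33.2 and 33.3% against 21.8% in the combined list. How far this density enters these shares, or the recurrence counts below, was not tested. Members were also wider than the series as a whole, and wide regions were touched more often everywhere. Among regions from 1.3 kb to under 2 kb, 43.1% on 3LHet and 50.0% on 3RHet were touched, against 42.5% over the whole series. Among those from 2 kb to under 3 kb the shares were 69.4% on 3LHet and 78.8% on 3RHet, against 68.7%. In these classes 3LHet was thus close to the whole series, and 3RHet lay above it. In the narrowest class, below 1.3 kb, 22.1% on 3LHet and 15.8% on 3RHet were touched, against 19.9%, so there 3RHet lay below the series. From 3 kb to under 5 kb both lay above it, with 89.7% on 3LHet and 96.5% on 3RHet, against 84.9%. At 5 kb or more, all 14 regions of 3LHet and all 9 of 3RHet were touched, against 98.4%.

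The scaffolds parted at the highest recurrence. At least 3 lists touched 29 regions of 3LHet (7.07%) and 17 of 3RHet (4.17%), together 46 or 5.62%, against 3.56% of all regions. All 4 lists touched 10 regions of 3LHet (2.44%) and 1 of 3RHet (0.245%), together 11 or 1.34%, against 0.729% of all regions. With 1 replicate left out, the other 3 lists all touched 11 to 20 regions of 3LHet and 3 to 8 of 3RHet, and the 20 came without replicate 2. When each list had to cover at least 50% of a region, 1 region of 3LHet and 0 of 3RHet met this in all 4 lists. These counts are over regions that share 4 libraries, so no test was made on them.

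Of the 10 regions of 3LHet touched by all 4 lists, 5 lay within the 123433 bp block described above, and 5 were among the other 382 regions of the scaffold. The 5 in the block were 3LHet:1924878-1929112, 3LHet:1956946-1960060, 3LHet:1964133-1968791, 3LHet:1968818-1978643 and 3LHet:1996075-2001247. The first of these, 4235 bp wide, was the most evenly held, with 70.6, 59.6, 68.9 and 55.1% of its bases in replicates 1 to 4. It was the single region of 3LHet that each list covered by at least 50%. 3LHet:1956946-1960060, 3115 bp wide, was covered at 65.7, 50.0, 41.9 and 59.6%. 3LHet:1964133-1968791, 4659 bp wide, was covered at 91.3, 36.0, 45.6 and 42.7%. 3LHet:1996075-2001247, 5173 bp wide, was covered at 38.7, 32.7, 36.9 and 60.8%. The region 3LHet:1968818-1978643, described above as the widest, begins just after the end of 3LHet:1964133-1968791.

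The other 5 lay in the first 9 windows of 3LHet. 3LHet:10215-14373 was covered at 37.4, 81.7, 33.9 and 46.5% by replicates 1 to 4. 3LHet:269159-271207, the narrowest of the 10 at 2049 bp, was covered at 63.5, 35.2, 24.0 and 68.6%. The remaining regions were 3LHet:429490-433609, 3LHet:483998-488921 and 3LHet:870090-877388, with 86.3, 77.7 and 49.2% of their bases in replicate 1. Their least covering list held 20.8, 26.7 and 13.2% of the bases, from replicates 3, 4 and 2 in that order. The only such region of 3RHet, 3RHet:1517513-1522514, 5002 bp wide, was covered at 44.5, 11.0, 29.2 and 57.7%. The scores of the 11 regions were ordinary: the best ranked 96th of 410 on 3LHet, and that of 3RHet ranked 282nd of 408.

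**Figure D5:**
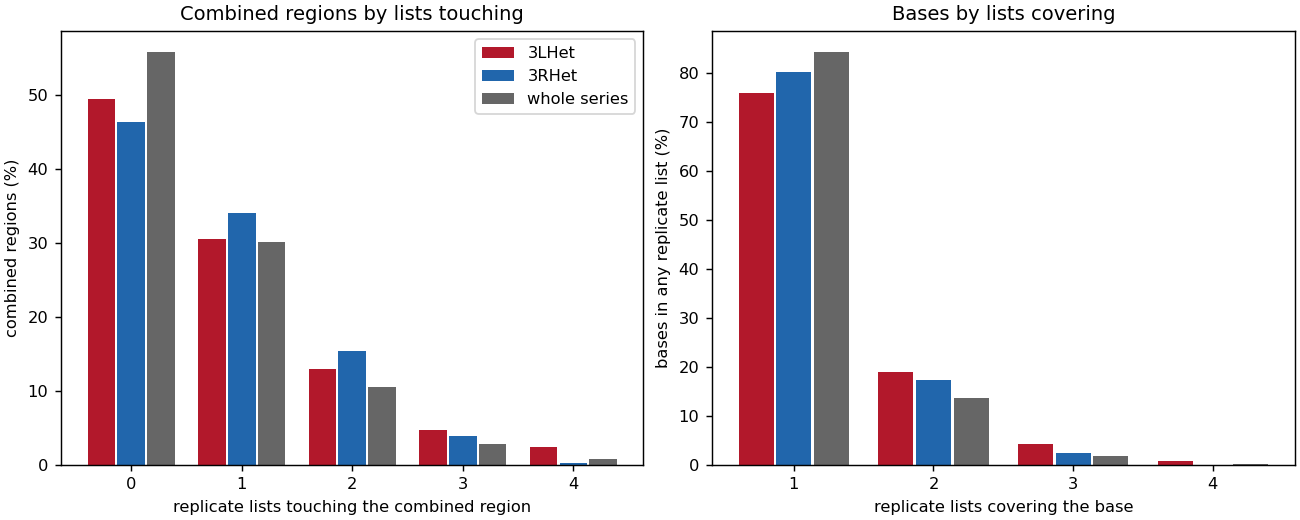
The left panel gives the share of combined regions (%) by the number of replicate lists that touch them, and the right panel the share of bases in any replicate list (%) by the number of lists that cover them, for 3LHet, 3RHet and the whole series. Regions touched by all 4 lists make up 2.44% on 3LHet, 0.245% on 3RHet and 0.729% over the whole series.

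At the level of bases the same order appeared. Of the bases in any replicate list, 4.19% on 3LHet and 2.31% on 3RHet lay in exactly 3 lists, against 1.71% over the whole series. A further 3585 bp of 3LHet (0.770%) lay in all 4 lists, while 3RHet had 0 bp, against 0.174% over the whole series. The 3RHet region touched by all 4 lists therefore had no base at which all of them met. The 3585 bp fell into 5 stretches, at 3LHet:10935-12151, 3LHet:269534-269649, 3LHet:1926478-1926581, 3LHet:1927767-1928609 and 3LHet:1958178-1959482. They were 1217, 116, 104, 843 and 1305 bp long, and 3 of them lay within the 123433 bp block. These stretches lay in 3LHet:10215-14373, 3LHet:269159-271207, 3LHet:1924878-1929112 and 3LHet:1956946-1960060 only. The other regions of 3LHet touched by all 4 lists, like that of 3RHet, had no base at which all lists met. There the lists touched different parts of the same combined region.

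The share of replicate regions that met another replicate list was higher on 3LHet in all 4 replicates, without passing the test. Of the regions in lists 1 to 4, 64.3, 62.9, 55.1 and 55.5% on 3LHet touched a region of another replicate list. On 3RHet these shares were 47.1, 59.4, 46.2 and 46.0%, and over the whole lists 43.0, 46.1, 43.4 and 40.8%. The difference of 3LHet from 3RHet was 17.2, 3.53, 8.87 and 9.44 percentage points, a mean of 9.76 ± 5.64 (SD, n = 4), and positive in 4 of 4 replicates. Its exact sign-flip p was 0.13, the smallest the test can give, with an adjusted p of 0.458 over 11 tests. The 10 earlier tests were adjusted without it, and there the same exact sign-flip p had an adjusted p of 0.625. A touch between lists counts for both of them, so the 4 differences are not independent of each other. The p therefore does not measure a spread between separate replicates. This comparison was added after its values had been seen, and the mean was 3.76 points when replicate 1 was left out. Without the 123433 bp block it was 7.76 points. The Jaccard index, which divides the bases common to a pair of lists by those in their union, averaged 10.1% ± 2.89 on 3LHet and 7.14% ± 1.39 on 3RHet (SD over 6 pairs, which share libraries), against 5.93% over the whole series. It was higher on 3LHet in 5 of 6 pairs. The exception was replicates 1 and 2, with 8.02% on 3LHet and 8.65% on 3RHet. How far the denser coverage of the scaffolds enters their difference from the whole series was not tested.

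Most replicate regions met the combined list, and replicates 2 and 3 held nearly all the exceptions. The combined list touched 100, 90.3, 89.8 and 99.1% of the 3LHet regions of replicates 1 to 4, and 95.6, 85.9, 82.8 and 99.1% of those of 3RHet. The regions left outside numbered 0, 6, 10 and 1 on 3LHet and 3, 9, 16 and 1 on 3RHet. Replicates 2 and 3 were the lower ones on both scaffolds and over the whole lists, where the shares were 96.6, 76.2, 76.7 and 97.0%. All bases covered by 3 or 4 lists on 3LHet lay in the combined list.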

How the data were processed

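The submitters' processing notes name Bowtie 0.12.7. No source used here gives the caller, its thresholds or the way replicates were combined. The deposited lists hold a start, an end and a score per region, on FlyBase r5 per the file headers. The score is the authors' own value, with no stated scale, and was used only within a list. Depth is unknown, so no counting interval was given. The members and lists were chosen with earlier results of these data known.

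The covered share is covered bases over the scaffold length in the file headers. Touching means an overlap of at least 1 bp. Ratios within a replicate were compared by the exact two-sided sign-flip permutation test with Benjamini-Hochberg adjustment, in Python 3.11.15 with numpy 2.4.6, scipy 1.17.1 and matplotlib 3.10.9. The interval functions were tested on simulated intervals. Alternatives were a lower limit at each list's median score, equal numbers per list (2185), joining across gaps under 500 bp, the combined list, lengths without empty stretches, coverage of 50% of a region, other windows and joins, and leaving out each replicate.

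Regions named were, per scaffold, those touched by all 4 lists, the 3 widest, the 3 of highest score, the 3 widest blocks, the 3 longest gaps, and the 3 most and 3 least covered windows of 100 kb. The blocks joined at 5 kb, the stretches covered by all 4 lists and the test added after seeing the data lie outside that rule. The gene table at hand is on Release 6, another build, so genes and sequence at these positions were not analysed here.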

Additional observations from a re-analysis of the deposited data

Results flagged for a closer look

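In 3 measures, 1 replicate stood far from the other 3. The longest gap on 3RHet was 143226 bp in replicate 4, against 162093 to 162814 bp in the others. The share of 3RHet regions that touched another replicate list was 59.4% in replicate 2, against 46.0 to 47.1% in the others. In 3LHet:2300001-2400000, replicate 4 covered 1.65% of the bases and the others 0%. The check was made on 64 measures, in which chance gives about 3.2 such cases, and 3 were found.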

How the results depend on the processing

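Of 121 alternatives over 19 results, 88 kept the direction or, for values with no test, stayed within the limit set for them. For tested values only the direction was compared, not the p-value. Another 21 turned the direction and 12 moved a count. Keeping the direction did not mean keeping the size. Equal numbers per list gave 0.012 for the log2 ratio of 3LHet to 3RHet in covered share, and the difference in replicate regions that meet another list was 3.76 points without replicate 1. All turned values belong to comparisons whose mean lay within the replicate spread. The log2 ratio of 3LHet to 3RHet in covered share was -0.0036 with a lower limit at the median score, -0.0030 in the combined list and -0.020 without empty stretches. It was -0.10 without the widest 5 kb block of 3LHet, a removal from 3LHet alone that must lower the ratio. The ratio of the first to the second 50% of 3LHet became -0.20 with that score limit and -0.094 in the combined list, and that of 3RHet -0.033 with that limit. The ratio of 3LHet to the 3L end became -0.11 with that score limit and -0.049 with equal numbers. The ratio of regions per Mb became -0.043 with that limit, -0.011 with equal numbers and -0.015 in the combined list. The difference in median width became 40.5 bp with that limit and 27.5 bp in the combined list. The difference in regions touched became -0.073 points with equal numbers. The cause was not tested.

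With each replicate left out in turn, the log2 ratios ran from -0.033 to 0.29 for the first over the second 50% of 3RHet, from -0.0052 to 0.068 for 3LHet over the 3L end and from -0.025 to 0.092 for regions per Mb. The width difference ran from -38.5 to 17.5 bp and the score ratio from 0.981 to 1.01. Regions touched by all remaining lists numbered 11 to 20 on 3LHet and 3 to 8 on 3RHet. 3RHet over the 3R end ran from 0.92 to 1.14, and both scaffolds over 2RHet from 0.56 to 0.76.

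With at least 50% of a region covered, all 4 lists held 1 region of 3LHet and 0 of 3RHet, and 3 or more lists held 6 of 3LHet and 2 of 3RHet. Without the widest 5 kb block of 3LHet, 5 regions were touched by all 4 lists. Joining at 5 kb left 101 blocks on 3LHet and 102 on 3RHet.

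No paired analysis was possible because H1 libraries are the only group analysed here, with no second group to block on the replicate number. The sign-flip tests themselves pair sequences within each replicate. The limits are the 4 replicates, which allow no p below 1 in 8, the unknown depth, and the lower width limits of 1.3 kb in the replicate lists and 1001 bp in the combined list.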

Other observations

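Widths in the combined list had a step at 2 kb. Regions of 1901 to 2000 bp numbered 24 on 3LHet and 25 on 3RHet, and those of 2001 to 2100 bp numbered 10 on 3LHet and 12 on 3RHet. Over the whole series the numbers were 873 and 358. The step thus ran through the whole series, and its cause was not tested.

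Exact scores repeated in the combined list. Another region of the series had the same score for 226 of 410 regions on 3LHet (55.1%) and 218 of 408 on 3RHet (53.4%), against 64.8% over the whole series. The commonest value, 0.465, was held by 6 regions on 3LHet and 5 on 3RHet, and by 269 in the whole series. The highest score of 3RHet and the third highest of 3LHet are the same value, 2.05.

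The highest score of each replicate list on each scaffold stood alone. These scores were 1.23, 3.16, 1.05 and 1.56 on 3LHet and 1.96, 1.76, 2.45 and 1.82 on 3RHet for replicates 1 to 4. None of the 8 regions was touched by another replicate list. The combined list touched all 4 on 3LHet and those of replicates 1 and 4 on 3RHet.

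The longest gap in a replicate list was longer on 3LHet than on 3RHet in all 4 replicates. It was 179384, 285441, 280291 and 219883 bp on 3LHet for replicates 1 to 4, against 162814, 162093, 162186 and 143226 bp on 3RHet. In the combined list the order was the other way, with 49977 bp on 3LHet and 77216 bp on 3RHet.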
